A study of Homo sapiens with 16 samples.

Results

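The BCL2 family holds the genes that set the threshold for death through the mitochondria. 10 of its members were chosen by symbol and found among the 54127 gene identifiers of the count tables, and all 10 had an identifier. They were 3 survival genes (BCL2, BCL2L1 and MCL1), 2 effectors (BAX and BAK1) and 5 BH3-only genes (BID, BIK, BMF, BBC3 and PMAIP1). The effectors and BH3-only genes among these 10 members are called death genes here.

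The proteins work by binding one another. Survival proteins hold the effectors and the BH3-only proteins in complexes at the outer mitochondrial membrane. BH3-only proteins rise or are activated under stress, occupy the survival proteins and in some cases activate BAX and BAK1 directly, and the freed effectors then form pores that release cytochrome c. In colonic epithelium the long product of BCL2L1, BCL-XL, and MCL1 are the survival proteins known best. Much of the control of these proteins lies in splicing, phosphorylation, cleavage and turnover. A read count per gene sees none of these and cannot part the long, protective products of MCL1 and BCL2L1 from their short, death-promoting ones.

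RNAseq was performed on established cell lines from human colorectal cancers, HT55 and SW948, grown as adherent cultures in serum. Each line received either itraconazole (5 µM), an azole antifungal, or DMSO as the vehicle control, and cells were sampled at day 6. There were 4 libraries in each of the 4 groups, HT55 DMSO, HT55 itraconazole, SW948 DMSO and SW948 itraconazole, and each line derives from a single tumor. The comparison asked how the survival and death genes moved with the drug in each line, and whether the lines differed.

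Gene counts ran from 8269406 to 11110814 per library. All 12 colorectal epithelial markers examined averaged at least 1 CPM (normalized read count, scaled to a common library size) in every group. 1 library stood apart. On the axis that runs from a line's controls at 0 to its other treated libraries at 1, HT55 itraconazole replicate 3 lay at 0.600, whereas the other 7 treated libraries lay between 0.822 and 1.16. Where leaving it out changed a call, or moved a value by over 1.5 times, the value without it is given too. Fibroblast, immune and endothelial markers were below 1 CPM on average except CD68 and COL1A1. The summed immune markers, nearly all CD68, went from 27.6 to 32.2 CPM over the HT55 DMSO libraries to 21.0 to 61.1 with itraconazole, and from 15.3 to 23.4 to between 108 and 112 CPM in SW948. The summed fibroblast markers, mostly COL1A1 in SW948, stayed between 0.212 and 1.41 CPM in HT55 and went from 2.23 to 3.97 CPM to between 9.60 and 12.0 CPM in SW948. Their part in the results was not tested.

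BMF rose most of the members in both lines, BBC3 and BID rose in both, BIK fell in both, and PMAIP1 and BAX rose in SW948 and did not pass the test in HT55. The survival genes BCL2L1 and MCL1 rose alongside the death genes. In HT55, 6 of the 10 members rose and 1 fell (edgeR quasi-likelihood test, Benjamini-Hochberg adjusted p under 0.05), where 27.5% of the 12133 genes tested rose and 26.5% fell. In SW948, 8 of the 9 members that could be tested rose and 1 fell, where 38.9% of the 12505 genes tested rose and 41.3% fell. The members' median log2 fold change was 0.26 in HT55 and 0.73 in SW948, beside -0.02 over all genes in both lines. The lines also differed from each other. The change with itraconazole was higher in SW948 than in HT55 for 5 members and lower for BID and BMF (interaction of line and treatment), where 24.8% of the 13249 genes tested were higher and 29.1% lower. BCL2 entered this fit of all 16 libraries through its counts in HT55 alone. It is left out of the counts between lines, except where alternatives to the processing are counted. With the scaling changed to plain library totals, the median over all genes shifted by -0.16 in HT55 and by -0.33 in SW948, so a fold change here is relative to the rest of the transcriptome. On plain totals 2280 genes were higher and 4709 lower in HT55, beside 3340 and 3213 in the reported fit, and 3147 and 6826 in SW948, beside 4865 and 5165. For the interaction it was 2295 higher and 4929 lower, beside 3292 and 3849.

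**Figure D1:**
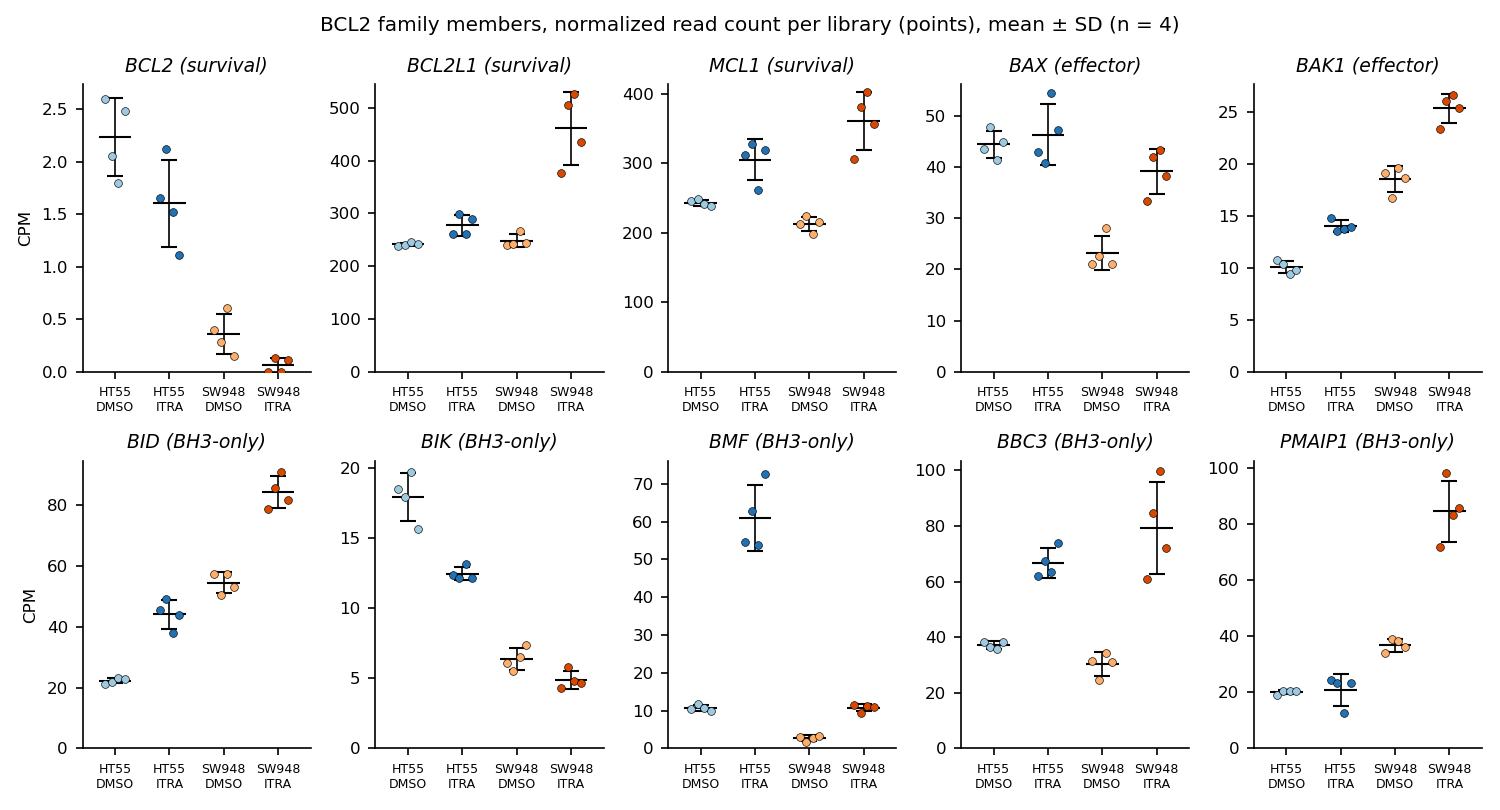
Normalized read count (CPM, linear axis from 0) of each of the 10 members in each of the 16 libraries, as points in replicate order, with the group mean and SD (n = 4). BMF went from 10.7 to 60.9 CPM in HT55, and PMAIP1 stood at 84.5 CPM in SW948 with itraconazole against 20.8 CPM in HT55 with itraconazole.

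Promoter sequences are shown for the member with the steepest rise in both lines, BMF, and for the pair that rose in SW948 and missed the threshold in HT55, PMAIP1 and BAX. Each window runs from 250 bases before to 50 bases after a start site in RefSeq (table build GRCh38.p14). It was found by exact match at 1 place on its own chromosome in GRCh37, and the coordinates of that place are given. Other chromosomes were not searched for it. Capitals mark GC boxes (GGGCGG, the letters bound by SP1-type factors, read on either strand as GGGCGG or CCGCCC) and E-boxes (CACGTG, the same on both strands).

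BMF, chr15:40401031-40401330, minus strand: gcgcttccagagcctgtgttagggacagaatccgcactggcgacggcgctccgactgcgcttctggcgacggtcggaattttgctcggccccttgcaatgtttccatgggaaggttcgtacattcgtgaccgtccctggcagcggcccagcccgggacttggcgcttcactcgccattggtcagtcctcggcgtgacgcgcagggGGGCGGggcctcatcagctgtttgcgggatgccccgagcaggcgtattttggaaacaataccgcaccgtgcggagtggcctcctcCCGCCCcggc
PMAIP1, chr18:57566978-57567277, plus strand: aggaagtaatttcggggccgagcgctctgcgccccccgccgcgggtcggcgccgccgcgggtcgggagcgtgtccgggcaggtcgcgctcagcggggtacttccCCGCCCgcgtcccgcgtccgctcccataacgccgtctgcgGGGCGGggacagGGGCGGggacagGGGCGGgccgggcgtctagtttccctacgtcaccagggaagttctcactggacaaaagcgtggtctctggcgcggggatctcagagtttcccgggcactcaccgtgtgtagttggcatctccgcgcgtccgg
BAX, chr19:49457882-49458181, plus strand: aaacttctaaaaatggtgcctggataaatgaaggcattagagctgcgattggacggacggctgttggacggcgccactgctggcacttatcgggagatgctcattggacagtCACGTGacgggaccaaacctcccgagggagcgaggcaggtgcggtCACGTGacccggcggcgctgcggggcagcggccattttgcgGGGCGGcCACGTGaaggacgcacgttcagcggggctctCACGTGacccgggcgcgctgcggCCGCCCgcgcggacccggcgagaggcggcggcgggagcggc

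The BMF window shown held 2 GC boxes, and a second BMF window in the table held none of the motifs searched. The PMAIP1 window held 4 GC boxes, and the BAX window held 2 GC boxes and 4 E-boxes. GC boxes are common, in 45.0% of all 35116 RefSeq promoter windows of this length, and E-boxes were in 7.26%. The table held 14 windows for 8 of the 10 members, and not for BIK or MCL1. The p53 decamer half-site, in 6.63% of all windows, was found in the BAK1 window alone. A cAMP response element (TGACGTCA, 1.85% of all windows), the composite element of ATF4 and CHOP (TGATGCAAT, 0.236%), an E2F site (TTTCGCGC, 0.515%) and a FOXO site (GTAAACA, 3.42%) were in none of the 14 windows, searched on both strands. For these motifs only the exact letters were searched, so variants and partial sites were not counted as matches. These matches describe letters and do not show binding.

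BCL2L1 was the most abundant member per length of exon in every group. Its gene lies at chr20:30252255-30311792 on the minus strand (GRCh37). In HT55 its level was 238, 240, 245 and 242 CPM in the 4 DMSO libraries and 261, 300, 260 and 290 CPM with itraconazole. All 4 treated libraries were above all 4 controls, by a small margin. This gave a log2 fold change of 0.20 ± 0.06 (SE; adjusted p = 0.0235). This call was lost when HT55 DMSO replicate 1 (adjusted p = 0.0539) or 2 (0.0527), or HT55 itraconazole replicate 2 (0.0508) or 4 (0.0551) was left out, and also with no filter on low counts (adjusted p = 0.0740) or in 1 fit of all 16 libraries (adjusted p = 0.0570). With plain library totals the value was 0.03 (adjusted p = 0.663). In SW948 the levels were 240, 241, 266 and 244 CPM with DMSO and 376, 505, 527 and 435 CPM with itraconazole. Every treated library lay well above every control. Here the gene rose by 0.86 ± 0.09 on the log2 scale (SE; adjusted p = 1.17e-06), and the rise exceeded that in HT55 by 0.69 ± 0.12 on the log2 scale (interaction, adjusted p = 9.30e-05). Part of the exon sequence of BCL2L1, 41.3%, is shared with ABALON, a noncoding gene on the opposite strand that has no identifier in the count tables. The strandedness of the counting is not given in the sources used here, so reads of the overlapping pair could not be told apart.

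MCL1 encodes a short-lived survival protein that binds BAK1, PMAIP1 and BBC3 among others (chr1:150533371-150552214, minus strand). In HT55 it was at 246, 248, 242 and 238 CPM with DMSO and at 313, 328, 262 and 320 CPM with itraconazole. The lowest treated value was that of replicate 3, and it was still above all controls. MCL1 rose by 0.32 ± 0.07 on the log2 scale (SE; adjusted p = 0.00422), and by 0.40 without that library. In SW948 the levels were 213, 224, 199 and 216 CPM with DMSO and 306, 382, 403 and 356 CPM with itraconazole, again without overlap. The rise of 0.73 ± 0.08 (SE; adjusted p = 1.70e-06) was larger than in HT55 by 0.44 ± 0.12 (interaction, adjusted p = 0.00355).

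BCL2, the founding survival gene, was nearly silent in both lines (chr18:60790579-60987361, minus strand). In HT55 the raw counts were 24, 20, 17 and 21 with DMSO and 14, 18, 16 and 9 with itraconazole, and 3 of the 4 treated libraries were below every control. The log2 fold change of -0.47 ± 0.25 (SE) did not pass the test (adjusted p = 0.125), and was -0.64 (adjusted p = 0.0416) with plain library totals. In SW948 it had 5, 3, 7 and 2 counts with DMSO and 0, 1, 0 and 1 with itraconazole, which put it below the filter on low counts. The treated values were below the controls with no overlap, and a two-sided exact permutation test of the difference in mean CPM (4 against 4) gave p = 0.0286, the smallest this design allows. The ratio of the scaled counts was 0.162 with a 95% exact interval from 0.0182 to 0.684, which covers counting error only. With no filter on low counts BCL2 fell in SW948 by 2.45 on the log2 scale (adjusted p = 0.0150). BCL2 passed the filter only through the line where it is high, so a test between the lines is not read as a result for it. BCL2 made up 0.183% of the summed survival gene counts per kilobase of exon in HT55 DMSO and 0.0306% in SW948 DMSO.

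BAX, one of the pore-forming effectors, followed different courses in the lines (chr19:49458072-49465055, plus strand). HT55 libraries held 43.6, 47.7, 41.3 and 44.9 CPM with DMSO and 42.9, 40.8, 54.4 and 47.2 CPM with itraconazole. The groups overlapped, and the highest value was that of replicate 3. BAX did not pass the test there, with a log2 fold change of 0.06 ± 0.10 (SE; adjusted p = 0.627), or -0.02 without that library (adjusted p = 0.861). In SW948 it went from 21.1, 22.7, 28.0 and 21.1 CPM to 33.3, 41.9, 43.2 and 38.2 CPM, with no overlap. This was a rise of 0.72 ± 0.11 on the log2 scale (SE; adjusted p = 3.29e-05). The difference between the lines was 0.69 ± 0.15 (interaction, adjusted p = 9.38e-04) and 0.77 without HT55 itraconazole replicate 3.

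BAK1, the other effector, rose in both lines (chr6:33540324-33548070, minus strand). HT55 libraries held 10.7, 10.4, 9.44 and 9.83 CPM with DMSO and 14.8, 13.6, 13.7 and 13.9 CPM with itraconazole. In SW948 it was at 19.1, 16.7, 19.6 and 18.6 CPM with DMSO and at 23.3, 26.0, 26.6 and 25.4 CPM with itraconazole. No treated library overlapped with the controls of its line. The log2 fold change was 0.47 ± 0.10 (SE; adjusted p = 0.00328) in HT55 and 0.42 ± 0.09 (SE; adjusted p = 6.46e-04) in SW948, and the interaction of -0.02 ± 0.13 did not pass (adjusted p = 0.906). With plain library totals the SW948 value was 0.08 (adjusted p = 0.391). Only 54.8% of the 50-base words in the exons of BAK1 occur once in the genome, whereas the other members had 95.8% or more. Reads with several alignments were left out of the counts, so the level of BAK1 is uncertain.

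BMF, a BH3-only gene whose product is held at the cytoskeleton in healthy cells, rose most (chr15:40380091-40401093, minus strand). In HT55 it was at 10.5, 11.7, 10.6 and 9.95 CPM with DMSO and at 54.7, 62.7, 53.8 and 72.5 CPM with itraconazole. This was a 5.66-fold rise, or 2.50 ± 0.12 on the log2 scale (SE; adjusted p = 1.43e-06). In SW948 it began lower, at 2.97, 1.70, 2.78 and 3.39 CPM, and reached 11.5, 9.41, 11.2 and 11.1 CPM. This was a 3.84-fold rise, or 1.94 ± 0.18 on the log2 scale (SE; adjusted p = 1.74e-07). The treated SW948 libraries thus stood at about the level of untreated HT55. The rise was smaller in SW948 by 0.53 ± 0.22 (interaction, adjusted p = 0.0442), a call that did not hold with DESeq2 (adjusted p = 0.0504). It was also lost in 11 of the 16 fits that left out 1 library (adjusted p from 0.0512 to 0.150), and held without HT55 DMSO replicate 2, HT55 itraconazole replicate 1 or 3, SW948 DMSO replicate 2 or SW948 itraconazole replicate 1. An antisense gene, BMF-AS1, covers 8.46% of the exon sequence and has no identifier in the count tables.

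BBC3, which encodes PUMA, a BH3-only protein that binds all the survival proteins, rose in both lines (chr19:47724079-47736023, minus strand). HT55 libraries held 38.4, 36.5, 35.6 and 38.4 CPM with DMSO and 61.9, 67.6, 63.3 and 73.9 CPM with itraconazole, a log2 fold change of 0.84 ± 0.08 (SE; adjusted p = 1.87e-05). In SW948 it went from 31.3, 24.5, 34.4 and 31.2 CPM to 61.0, 84.7, 99.7 and 72.0 CPM, a log2 fold change of 1.35 ± 0.14 (SE; adjusted p = 6.31e-07). Neither line had an overlap between treated and control libraries. The rise was larger in SW948 by 0.54 ± 0.17 (interaction, adjusted p = 0.0128), but by 0.34 with plain library totals (adjusted p = 0.0756).

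PMAIP1, which encodes NOXA, a BH3-only protein that binds MCL1 above all, had the largest positive interaction of the members (chr18:57567228-57571537, plus strand). In HT55 it was at 19.1, 20.5, 20.2 and 20.4 CPM with DMSO and at 24.3, 23.1, 12.5 and 23.2 CPM with itraconazole. 3 treated libraries were above every control, and replicate 3 was below every control. Over all 4 libraries the log2 fold change was 0.04 ± 0.18 (SE; adjusted p = 0.872), and 0.24 without replicate 3 (adjusted p = 0.0232). In SW948 it went from 33.8, 38.9, 38.2 and 36.1 CPM to 71.5, 98.1, 83.0 and 85.5 CPM, without overlap, and rose by 1.17 ± 0.09 on the log2 scale (SE; adjusted p = 4.17e-08). The interaction was 1.16 ± 0.20 (adjusted p = 9.14e-05), and 0.96 without HT55 itraconazole replicate 3 (adjusted p = 3.55e-06).

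BID, a BH3-only gene whose product links death receptors to mitochondria once caspase-8 has cut it, rose in both lines (chr22:18216904-18257536, minus strand). In HT55 it was at 21.2, 22.0, 23.1 and 23.0 CPM with DMSO and at 45.7, 49.3, 37.8 and 43.8 CPM with itraconazole, and it rose by 0.98 ± 0.09 on the log2 scale (SE; adjusted p = 2.35e-05). In SW948 it went from 57.5, 50.5, 57.4 and 53.05 CPM to 78.8, 85.7, 91.1 and 81.7 CPM, a log2 fold change of 0.59 ± 0.07 (SE; adjusted p = 3.24e-06). The groups did not overlap in either line. The rise was smaller in SW948 by 0.36 ± 0.12 (interaction, adjusted p = 0.0145).

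BIK, a BH3-only gene of the endoplasmic reticulum and mitochondria, was the single member that fell in both lines (chr22:43506756-43525718, plus strand). HT55 libraries held 18.5, 17.9, 19.7 and 15.6 CPM with DMSO and 12.3, 12.1, 13.1 and 12.2 CPM with itraconazole. The treated libraries were below all controls and close together. BIK changed by -0.53 ± 0.10 on the log2 scale (SE; adjusted p = 0.00177). In SW948 it was at 6.09, 5.48, 6.51 and 7.39 CPM with DMSO and at 4.30, 5.80, 4.83 and 4.63 CPM with itraconazole, where 1 treated library overlapped with the controls. Its log2 fold change was -0.43 ± 0.15 (SE; adjusted p = 0.0206). This call was lost without SW948 DMSO replicate 4 (adjusted p = 0.0750), SW948 itraconazole replicate 1 (0.0635) or SW948 itraconazole replicate 4 (0.0548). The interaction of 0.13 ± 0.18 did not pass (adjusted p = 0.554).

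**Figure D2:**
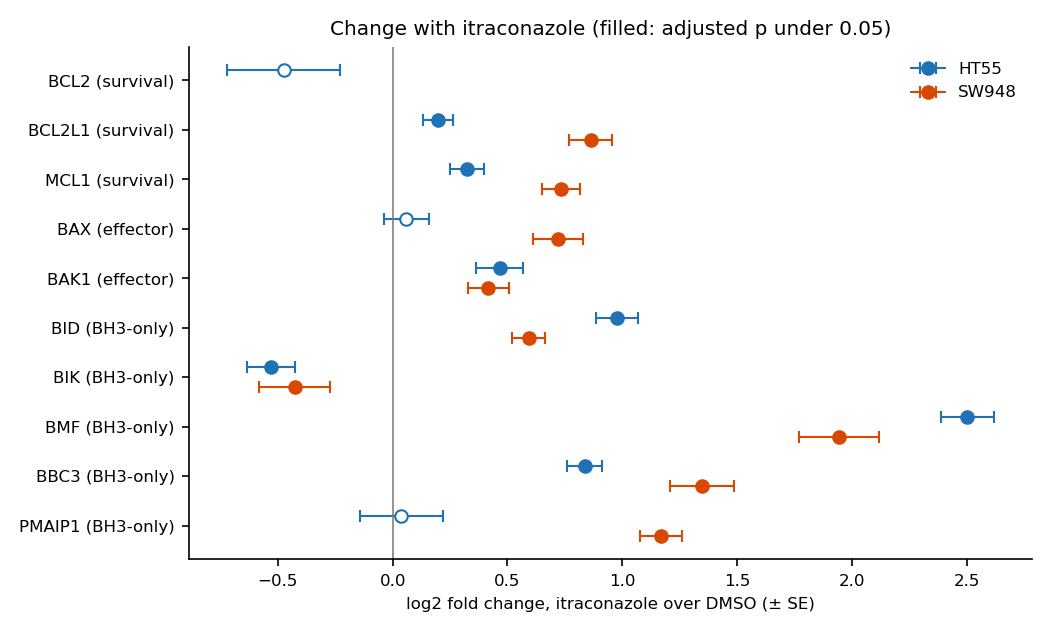
Log2 fold change with itraconazole (horizontal axis, ± SE) of each member in HT55 and SW948, from the edgeR fit of each line. Filled points passed an adjusted p of 0.05, and BCL2 has no SW948 point because it was below the filter on low counts. BMF lies farthest right in both lines, at 2.50 in HT55 and 1.94 in SW948, and BIK lies left of 0 in both.

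Without the drug, most members differed between the lines, as did most genes tested. Between the DMSO groups, 3 of the 9 members other than BCL2 were higher and 5 lower in SW948 than in HT55, where 38.2% of the genes tested were higher and 37.7% lower. BID was 2.45-fold higher (adjusted p = 3.86e-11), and BAK1 and PMAIP1 were each 1.83-fold higher in SW948 (adjusted p = 4.71e-08 and 1.85e-05). BMF was at 0.257 times its HT55 level (adjusted p = 1.56e-09), BIK at 0.356 times (adjusted p = 8.95e-10) and BAX at 0.523 times (adjusted p = 2.12e-07). BCL2 had 17 counts in all in SW948 against 82 in HT55. MCL1 and BBC3 were lower by a little (log2 -0.19 and -0.29, adjusted p = 0.0387 and 0.0423). Each of these calls was lost in 11 of the 16 fits that left out 1 library, with adjusted p from 0.0508 to 0.112 for MCL1 and from 0.0529 to 0.157 for BBC3. Both held without HT55 itraconazole replicate 2 or 3 or SW948 itraconazole replicate 1 or 3, MCL1 also without SW948 DMSO replicate 2, and BBC3 also without SW948 DMSO replicate 3. With plain library totals the difference was 0.0024 for MCL1 and -0.09 for BBC3, and neither passed (adjusted p = 0.974 and 0.456). Both also missed the threshold with at least 10 counts in every library (adjusted p = 0.0615 and 0.0634). MCL1 missed it with no filter on low counts too (adjusted p = 0.0674). BCL2L1 was at 248 CPM in SW948 and 242 CPM in HT55 and did not pass (adjusted p = 0.704), but was 0.23 higher on the log2 scale with plain library totals (adjusted p = 0.00447). Plain totals shifted the median over all genes by 0.20 in this contrast, and 6134 genes were then higher and 3919 lower, beside 5059 and 4996.

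With itraconazole, 5 of these 9 members were higher and 3 lower in SW948 than in HT55, where 39.3% of the genes tested were higher and 41.5% lower. PMAIP1 was 4.10-fold higher (adjusted p = 9.89e-11), BID 1.91-fold higher (adjusted p = 1.83e-09) and BAK1 1.81-fold higher (adjusted p = 3.52e-08). BCL2L1 was 1.66-fold higher (adjusted p = 1.80e-07) and MCL1 1.18-fold higher (adjusted p = 0.0105). BMF was at 0.178 times its HT55 level (adjusted p = 8.29e-13) and BIK at 0.391 times (adjusted p = 1.35e-08). BCL2 had 2 counts in all in SW948 against 57 in HT55. BAX was at 0.842 times (adjusted p = 0.0416), a call lost without HT55 itraconazole replicate 3 (adjusted p = 0.161) and in 7 of the other 15 fits that left out 1 library, those without any 1 of the 4 HT55 DMSO libraries, HT55 itraconazole replicate 4 or SW948 itraconazole replicate 1 or 4 (adjusted p from 0.0506 to 0.153). It was also lost with RLE size factors, DESeq2, plain totals or at least 10 counts in every library (adjusted p from 0.0502 to 0.0756). BBC3 was at 79.3 ± 16.6 CPM in SW948 and 66.7 ± 5.36 CPM in HT55 (SD, n = 4) and missed the threshold (adjusted p = 0.0615), whereas it passed under each of 5 other settings of scaling, filter or tool (adjusted p from 0.0198 to 0.0460) and without HT55 itraconazole replicate 4, SW948 DMSO replicate 2 or SW948 itraconazole replicate 1 or 4 (adjusted p from 0.00508 to 0.0492).

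To set genes beside each other, CPM was divided by the length of all annotated exons of a gene. On this scale of CPM per kilobase, BCL2L1 and MCL1 ranked first and second in all 4 groups and overlapped with no other member. In HT55 DMSO, BCL2L1 was at 57.5 ± 0.722 and MCL1 at 39.1 ± 0.713 (SD, n = 4). BIK at 18.9 ± 1.80 and BAX at 17.2 ± 1.03 came next and overlapped with each other, followed by BBC3 at 11.7, PMAIP1 at 9.18, BID at 5.05, BAK1 at 4.56, BMF at 1.96 and BCL2 at 0.177. Of these lower neighbors, BID and BAK1 overlapped. With itraconazole, BBC3 moved to the third place in HT55 at 20.9 ± 1.68, overlapping with BAX at 17.9 ± 2.31. BMF went from the ninth place to the sixth, at 11.2 ± 1.60, a level that overlapped with BIK at 13.1 ± 0.484 on one side in rank order and with BID at 9.99 ± 1.08 on the other.

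On this scale PMAIP1 led the death genes in SW948. It was at 16.8 ± 1.05 CPM per kilobase with DMSO and 38.7 ± 4.98 with itraconazole (SD, n = 4), above every other death gene of the members in both groups. BAD, a BH3-only gene outside the members, was at 20.8 with DMSO, above PMAIP1, and at 27.8 with itraconazole. BOK, a BAX-like gene also outside the members, was at 16.7 with DMSO and 10.5 with itraconazole. BID at 12.4 ± 0.780 came second among death genes with DMSO. BBC3 at 24.9 ± 5.22 and BID at 19.1 ± 1.20 overlapped in the treated group. BMF and BCL2 were the lowest in both SW948 groups. The order of the death genes depends on the length used. The canonical transcript of BAX has 795 bases and all its exons 2587 bases, and with canonical lengths BAX led the death genes in all 4 groups. In SW948 DMSO it was then at 29.2 ± 4.13, BID at 25.1 ± 1.58 and PMAIP1 at 19.4 ± 1.21. In treated SW948 it was at 49.2 ± 5.58, PMAIP1 at 44.5 ± 5.73 and BBC3 at 43.0 ± 9.01 (SD, n = 4), and these overlapped. BCL2L1 and MCL1 kept the first and second place, but the ranges of MCL1 and BAX overlapped in treated HT55.

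The makeup of the death genes, on the scale of all exons, is shown in the plot of death gene shares. In HT55, BIK went from 27.5% ± 2.34 to 14.7% ± 1.12 of the summed death gene counts per kilobase (SD, n = 4) and BMF from 2.87% ± 0.148 to 12.5% ± 1.23. BBC3 went from 17.1% ± 0.877 to 23.5% ± 0.954 and BAX from 25.1% ± 1.43 to 20.2% ± 3.10. In SW948, PMAIP1 went from 26.7% ± 2.30 to 33.2% ± 2.30 and BBC3 from 15.0% ± 1.39 to 21.3% ± 2.53. BMF stayed a small part there, at 0.783% ± 0.197 and 1.73% ± 0.315. BIK went from 10.6% ± 1.16 to 4.42% ± 0.332.

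**Figure D3:**
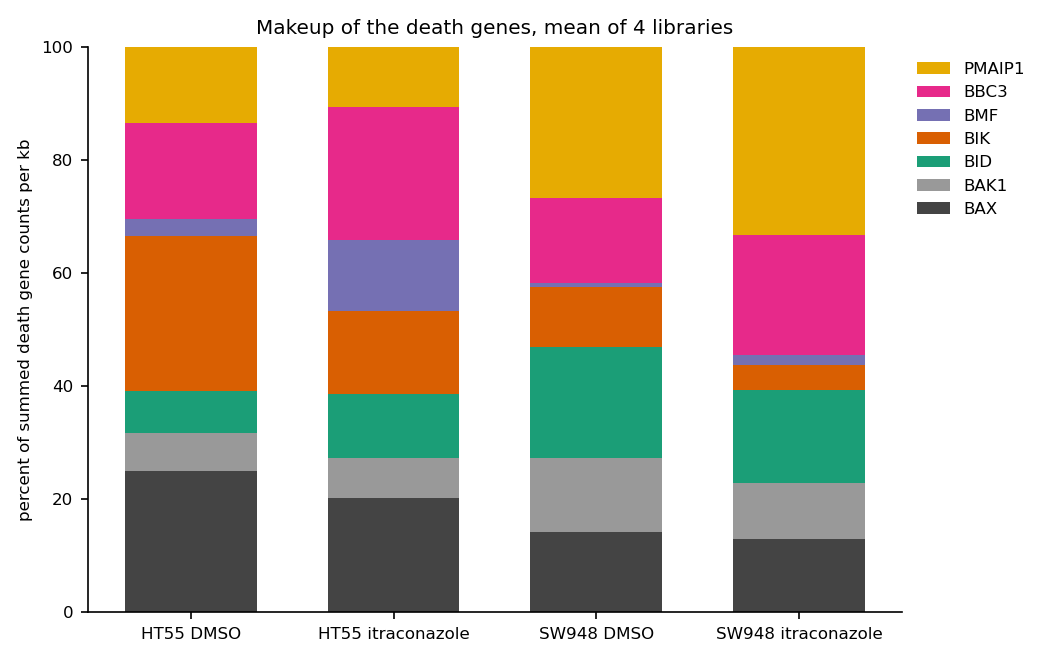
Share of each of the 7 death genes in their summed counts per kilobase of exon (vertical axis, percent, mean of 4 libraries) in the 4 groups. BMF takes 12.5% in treated HT55 and 1.73% in treated SW948, and PMAIP1 takes 10.6% in treated HT55 and 33.2% in treated SW948.

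The balance of survival and death genes was taken within each library as the log2 ratio of their summed counts per kilobase of exon. It needs no scaling between libraries and is given as a description with no test. It was 0.49, 0.48, 0.51 and 0.53 in the HT55 DMSO libraries and 0.37, 0.48, 0.29 and 0.35 with itraconazole. 3 of the 4 treated libraries were below all controls, and replicate 2 touched their range. The mean difference was -0.13, and -0.10 without HT55 itraconazole replicate 3. In SW948 it was 0.56, 0.66, 0.48 and 0.55 with DMSO and 0.48, 0.52, 0.60 and 0.51 with itraconazole, a mean difference of -0.04 with overlapping groups. The summed survival genes were thus 1.30 to 1.48 times the summed death genes in all 4 group means, although most members had changed. These sums hold the members alone. Of family genes outside them, BAD was at 20.8, BOK at 16.7 and BCL2L2 at 8.45 CPM per kilobase in SW948 DMSO. A sum with these genes was not taken. With canonical transcript lengths the mean log2 balance was 0.35 in HT55 DMSO and 0.23 in HT55 itraconazole. It was 0.51 in SW948 DMSO and 0.47 in SW948 itraconazole. The size of the difference depends on the weights. With each gene weighing the same, as the difference of mean log2 CPM, the balance went from 1.35 ± 0.08 to 0.76 ± 0.15 in HT55 and from 0.81 ± 0.18 to 0.15 ± 0.13 in SW948 (SD, n = 4), a log2 difference of -0.589 and -0.659. Without division by exon length the log2 difference was -0.444 in HT55 and -0.099 in SW948. With equal weights the low BMF and BCL2 weigh as much as BCL2L1. In the summed form 1 gene can turn the sign in SW948, where the difference was 0.10 without PMAIP1 and 0.0083 without MCL1.

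The total hides opposite parts. Against the BH3-only genes alone, the survival genes were lower in both treated lines with no overlap of libraries. The log2 ratio went from 1.05 ± 0.04 to 0.84 ± 0.04 in HT55 and from 1.02 ± 0.07 to 0.90 ± 0.05 in SW948 (SD, n = 4). In SW948 the groups nearly touched, at 0.974 in the lowest control and 0.972 in the highest treated library. Against the effectors alone the survival genes were higher in treated SW948, from 2.43 ± 0.11 to 2.65 ± 0.07 with no overlap. In HT55 that ratio was 2.16 ± 0.08 with DMSO and 2.25 ± 0.23 with itraconazole and overlapped, with replicate 3 lowest at 1.94. Without replicate 3 the treated mean was 2.36 ± 0.13 (n = 3), above all controls, and the difference went from 0.09 to 0.20.

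The ratios of 2 pairs that bind each other as proteins went in opposite directions in the lines. MCL1 over PMAIP1 was at 2.17, 2.09, 2.07 and 2.04 on the log2 scale in HT55 DMSO and at 2.18, 2.32, 2.88 and 2.28 with itraconazole, so every treated library was above the controls, 1 of them narrowly. The mean difference was 0.32, and 0.16 without replicate 3. In SW948 the same ratio was 1.15, 1.01, 0.87 and 1.07 with DMSO and 0.59, 0.45, 0.77 and 0.55 with itraconazole, all below the controls. BCL2L1 over BAK1 went from 3.66 ± 0.10 to 3.38 ± 0.14 in HT55 and from 2.82 ± 0.08 to 3.25 ± 0.14 in SW948, without overlap in either line. The margin in HT55 was narrow, between 3.55 in the lowest control and 3.54 in the highest treated library. MCL1 over BAK1 went from 3.10 ± 0.07 to 2.95 ± 0.15 in HT55 and from 2.03 ± 0.16 to 2.34 ± 0.09 in SW948, with overlap in both. The HT55 difference of -0.15 was -0.09 without replicate 3. BCL2L1 over BAX overlapped between treated and control libraries in both lines, at 1.75 ± 0.10 and 1.89 ± 0.25 in HT55 and at 2.73 ± 0.13 and 2.85 ± 0.06 in SW948. Without replicate 3 the treated HT55 mean was 2.001 ± 0.15 (n = 3), above all controls.

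**Figure D4:**
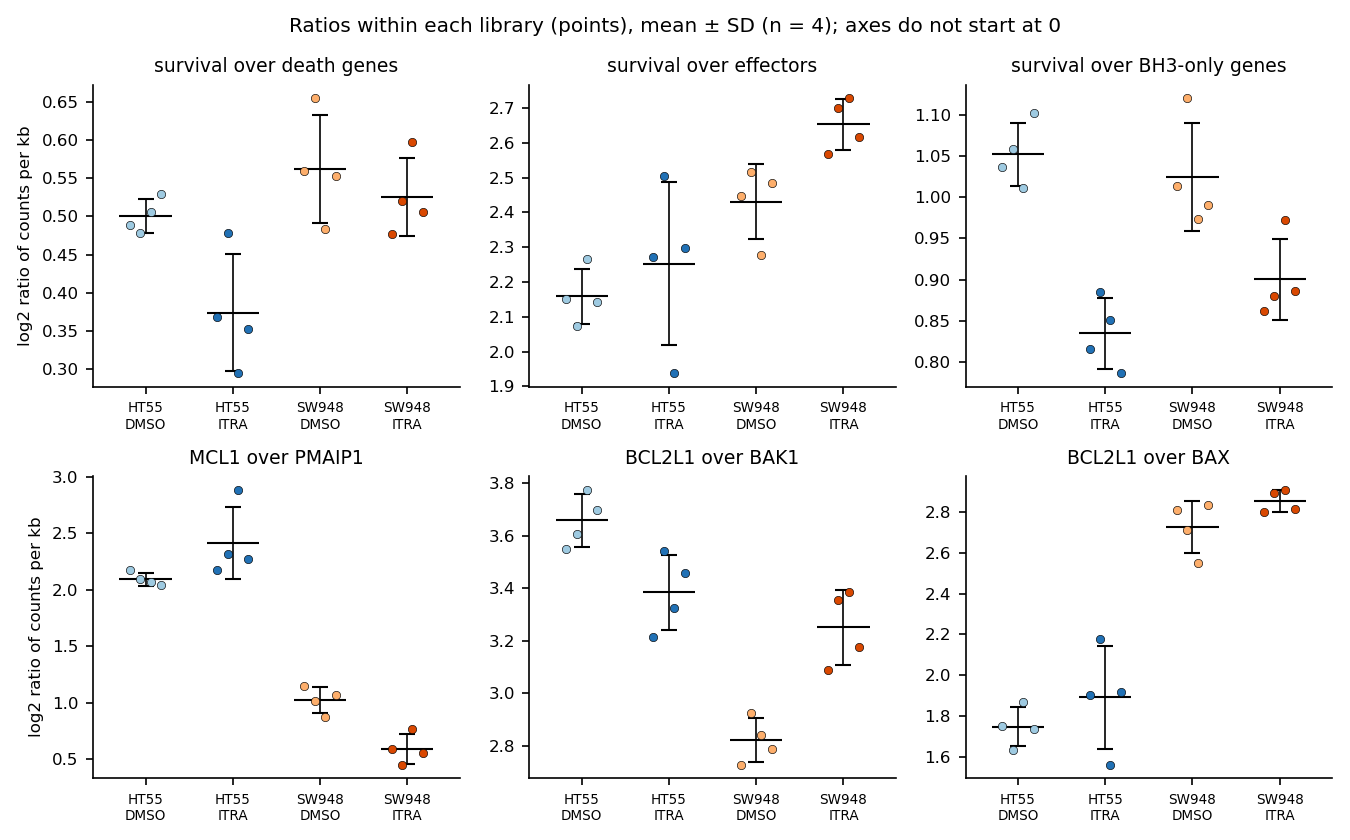
Log2 ratio of counts per kilobase of exon within each library (points, in replicate order) with the group mean and SD (n = 4), for 3 sums and 3 gene pairs; the vertical axes do not start at 0. MCL1 over PMAIP1 lies at 2.41 in treated HT55 and at 0.59 in treated SW948, on opposite sides of their controls at 2.09 and 1.03. Without HT55 itraconazole replicate 3 the treated HT55 mean is 2.26.

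7 further genes of the family were read beside the members. BCL2L11, which encodes BIM, a BH3-only protein that binds all the survival proteins, rose 2.84-fold in HT55, from 15.5 to 44.1 CPM on average (adjusted p = 6.66e-05), and 4.62-fold in SW948, from 12.8 to 60.5 CPM (adjusted p = 1.45e-10). The rise was larger in SW948 by 0.73 ± 0.20 (interaction, adjusted p = 0.00452). BOK, a BAX-like gene, rose in HT55 (log2 0.44 ± 0.14, adjusted p = 0.0257) and fell in SW948 (log2 -0.70 ± 0.09, adjusted p = 6.70e-06), with an interaction of -1.10 ± 0.16 (adjusted p = 1.57e-05). It was 9.87-fold higher in SW948 DMSO than in HT55 DMSO (adjusted p = 1.92e-15). BAD, a BH3-only gene under growth factor control, rose in SW948 (log2 0.38 ± 0.10, adjusted p = 0.00293). In HT55 it was at 20.6, 21.3, 35.0 and 28.9 CPM with itraconazole against 19.8 to 20.9 CPM with DMSO. The log2 fold change of 0.37 ± 0.16 did not pass (adjusted p = 0.0711), and was 0.21 without replicate 3 (adjusted p = 0.120). The survival gene BCL2L2 did not pass in either line (log2 0.13 and 0.17, adjusted p = 0.161 and 0.110). BCL2L10 had 54 and 63 counts in the HT55 groups and 9 and 1 in SW948. BCL2A1 had 3 and 4 counts in HT55 and none in SW948, and HRK had 1 count in all 16 libraries.

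The wider lists are read against all genes tested, with 27.5% higher and 26.5% lower in HT55, and 38.9% higher and 41.3% lower in SW948. Without HT55 itraconazole replicate 3 the HT55 shares were 32.6% and 31.9%. Of 11 genes of caspase activation tested, HT55 had 2 that rose and 1 that fell, and SW948 had 3 that rose and 4 that fell. Each of these shares was below that over all genes. Without replicate 3 the HT55 counts were 3 and 2. APAF1, which builds the apoptosome, rose in both (log2 0.48 in HT55 and 0.82 in SW948, adjusted p = 0.00198 and 4.16e-08). Of 5 inhibitor of apoptosis genes tested, 1 fell in HT55 and none rose, or 1 and 2 without replicate 3, and SW948 had 3 that rose and 1 that fell. BIRC3 and BIRC2, which act at the tumor necrosis factor receptor, rose in SW948 by 1.46 and 0.95 on the log2 scale (adjusted p = 8.64e-10 and 4.51e-08). In HT55, BIRC3 was at 0.31 (adjusted p = 0.145), and at 0.45 without replicate 3 (adjusted p = 0.0143). BIRC2 was at -0.05 (adjusted p = 0.683), and at 0.04 without it. BIRC5, which encodes survivin and serves in mitosis, was the gene that fell in both (log2 -0.43 and -0.25, adjusted p = 3.74e-04 and 0.0184).

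Of 11 death receptor genes tested, HT55 had 3 that rose and 2 that fell, or 4 and 3 without replicate 3, and SW948 had 4 and 3. These shares were near those over all genes, 27.5% and 26.5% in HT55 and 38.9% and 41.3% in SW948, or below them. The decoy receptor TNFRSF10D rose most in both (log2 0.73 and 1.95, adjusted p = 3.34e-04 and 3.56e-11). RIPK1, a kinase of the receptor complex, rose in HT55 (log2 0.55, adjusted p = 4.46e-04), and the adaptor TRADD fell in SW948 (log2 -1.03, adjusted p = 1.50e-06). In HT55 TRADD was at -0.23 (adjusted p = 0.434), and at -0.49 without replicate 3 (adjusted p = 0.0401). Among regulators of BCL2 family proteins, 5 rose and 3 fell of 10 tested in HT55, and 5 rose and 2 fell of 11 in SW948, beside the same shares over all genes. The HT55 counts were also 5 and 3 without replicate 3. VDAC2, a mitochondrial channel that holds BAK1, rose in both (log2 0.87 and 1.38, adjusted p = 0.00198 and 3.00e-09), as did the co-chaperone BAG3 (log2 0.70 and 1.74, adjusted p = 0.00235 and 1.09e-07).

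Of 8 transcription factors known to act on BH3-only genes, HT55 had 2 that rose and 3 that fell, or 3 and 4 without replicate 3, and SW948 had 5 and 3. The shares over all genes were 27.5% and 26.5% in HT55 and 38.9% and 41.3% in SW948. FOXO1 rose in both lines (log2 0.87 and 1.44, adjusted p = 0.00192 and 4.47e-08) and TP73 fell in both (log2 -0.84 and -0.78, adjusted p = 0.0171 and 0.00171). In SW948, E2F1 fell by 3.03 on the log2 scale (adjusted p = 7.88e-09) and ATF3 rose by 1.69 (adjusted p = 9.11e-07). In HT55 the values were -0.20 and 0.40 and did not pass (adjusted p = 0.357 and 0.203), but without replicate 3 they were -0.43 and 0.64 and passed (adjusted p = 0.00126 and 0.00190). The list medians, in HT55 and SW948, were 0.03 and 0.06 for caspase activation, -0.03 and 0.29 for the inhibitors, -0.03 and 0.14 for death receptors, 0.27 and 0.16 for the regulators and -0.22 and 0.84 for the transcription factors. Without replicate 3 the HT55 medians were -0.02 for caspase activation, 0.04 for the inhibitors and 0.08 for death receptors, so their signs turned.

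The genes most like PMAIP1 across the 16 libraries, by the root mean square difference of centered log2 CPM, were CSNK2A1 (0.156), NTAQ1 (0.164) and GTF2E2 (0.166). Those most like BCL2 were ZNF14 (0.355), ARRB2 (0.368) and TGFBI (0.370). These are descriptions over libraries that share lines and treatments, and BCL2 rests on few counts.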

How the data were processed

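Per the submitters' processing notes, TopHat, HTSeq and DESeq were used with hg19. Versions, the annotation release and the strand setting are not given in the sources used here. The authors deposited raw read counts per gene from single-end TruSeq libraries, with 5 closing rows that name no gene. Of the counts in all rows, 22.0% to 27.9% per library were tallied as alignments that were not unique and were assigned to no gene. Also assigned to no gene were 3.79% to 4.94% outside any feature and 1.23% to 1.48% that were ambiguous.

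Members were matched by symbol. The members and lists were chosen with earlier results of these data known. Tests used the edgeR 4.0.16 quasi-likelihood fit in R 4.3.3 (TMM, filterByExpr, Benjamini-Hochberg adjustment over all genes tested), on 8 libraries for each line and on all 16 for the interaction and the contrasts between lines. Genes below the filter were tested by an exact permutation test over 70 assignments. The SE is the log2 fold change divided by the root of F. CPM used TMM-scaled library sizes. Exon lengths came from GENCODE lifted to GRCh37. The study's methods describe the replicates as biological, in quadruplicate, and do not say how the cultures were set up. No batch is labeled. The fits were tested on simulated counts.

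Named genes were all members, the 7 further family genes, and from each wider list, for each line, the 2 genes with the largest absolute log2 fold change among those called whose mean log2 CPM reached 1. A gene that this rule names is not reported here. Most-alike genes were named for the members with the largest positive and the largest negative interaction. Alternatives were RLE size factors, plain totals, DESeq2 1.42.0, other filters, a replicate block, 1 fit of all libraries and leaving out each library. Values of wider genes and gene pairs without HT55 itraconazole replicate 3 were added after the data were seen. For the balance they were other weights, lengths and members.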

Additional observations from a re-analysis of the deposited data

Results flagged for a closer look

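The highest or lowest of 4 libraries stood far from the rest in 3 of the 44 groups of member values examined, and chance alone gives about 1 in 20. The gap to the nearest library was 0.842 of the whole range for BCL2L1 in SW948 DMSO, where replicate 3 was highest at 266 CPM. It was 0.839 for PMAIP1 in HT55 DMSO, where replicate 1 was lowest at 19.1 CPM within a narrow range. It was 0.898 for PMAIP1 in HT55 itraconazole, where replicate 3 was lowest at 12.5 CPM, the same library that lay between its controls and the other treated libraries over all genes.

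The response to itraconazole differed between the lines by the interaction test (SW948 minus HT55 on the log2 scale). With BCL2 left out of the count, it was larger in SW948 for 5 members and smaller for BID and BMF. Over all genes tested 24.8% were higher and 29.1% lower. The response was larger in SW948 for PMAIP1 (1.16), BCL2L1 (0.69), BAX (0.69), BBC3 (0.54) and MCL1 (0.44), and smaller for BID (-0.36). It was also smaller for BMF (-0.53), a call lost in 11 of the 16 fits that left out 1 library and with RLE size factors or DESeq2. The value for BCL2 (-1.92) rests on 2 counts in the treated SW948 group and on a filter that the gene passed only through HT55. Its call was lost as often when 1 library was left out, and under the same settings. It was also lost with no filter on low counts (adjusted p = 0.117) or with a replicate block (adjusted p = 0.0861).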

How the results depend on the processing

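Over the alternatives run, the counts of members called higher stayed within 1.5 times in each comparison. The counts of members called lower are small and moved with single genes. In HT55, 1 fell in the reported fit and 2 with plain library totals, where BCL2 passed. In SW948, 1 fell in the reported fit and 2 with no filter on low counts or in 1 fit of all 16 libraries, where BCL2 was added, in the latter through its HT55 counts. Between the lines, requiring at least 10 counts in every library left 3 lower members of 6 with DMSO and 2 of 4 with itraconazole. BCL2, included in the 6 and the 4, was removed by that filter. MCL1 (adjusted p = 0.0615) and BBC3 (0.0634) with DMSO, and BAX (0.0756) with itraconazole, were still tested and missed the threshold. The cause of these changes beyond that was not tested. For the interaction, 3 members were lower, BCL2 included, and 1 with RLE size factors or DESeq2, where BCL2 and BMF missed the threshold.

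Leaving out 1 library at a time gave 5 to 7 higher members and 1 lower in HT55. In SW948 it gave 8 higher and 0 to 1 lower, in the DMSO contrast of lines 3 higher and 4 to 6 lower, in the treated contrast 5 to 6 higher and 3 to 4 lower, and in the interaction 5 higher and 1 to 2 lower.

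Signs of member values turned where the reported value had not passed, and for MCL1 between the DMSO groups, which had passed at -0.19. With plain library totals BAX and PMAIP1 in HT55 were -0.10 and -0.14, MCL1 between the DMSO groups was 0.0024 and the interaction of BIK was -0.060. BAX in HT55 ranged from -0.017 (without itraconazole replicate 3) to 0.118 over the libraries left out, and PMAIP1 ranged from -0.045 to 0.240 over the libraries left out (-0.045, -0.021 and -0.017 without itraconazole replicates 1, 2 and 4). The interaction of BAK1 was 0.0054 with RLE size factors, 0.0027 with DESeq2, and -0.068 to 0.00999 over the libraries left out, above 0 without HT55 DMSO replicate 3, SW948 DMSO replicate 3 or SW948 itraconazole replicate 1.

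The change of the balance was -0.13 in HT55 and -0.04 in SW948. With each gene weighing the same it was -0.589 and -0.659, and without division by exon length -0.444 in HT55 and -0.099 in SW948. In SW948 it was 0.0083 without MCL1 and 0.10 without PMAIP1. Leaving out 1 library gave -0.16 to -0.10 in HT55 and -0.06 to -0.01 in SW948. With canonical transcript lengths it was -0.118 in HT55 and -0.035 in SW948, and without BAK1 and BCL2 -0.119 and -0.091. Both settings were chosen after the data were seen. Each move was smaller than the larger group SD of its line, 0.077 in HT55 and 0.071 in SW948. In SW948 the move without BAK1 and BCL2 was above the SD of the treated group, 0.052.

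Same-numbered libraries of the treated and control groups did not deviate together (r from -0.026 to 0.123 in HT55 and from 0.0032 to 0.124 in SW948), nor did every library correlate best with its own number, so the numbers were not taken as pairs. With a replicate block the genes called went from 6553 to 6300 in HT55, and no call of a member within a line changed. The interaction of BCL2 (-1.90, adjusted p = 0.0861) missed the threshold. Each block lies within 1 line, so the blocked contrast between lines rests on 1 reference replicate per line. It does not compare group means, and its results are not given. Depth limits BCL2, whose treated SW948 libraries hold 0 or 1 count.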
